A study of Homo sapiens with 9 samples.

Results

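The genes described here are 10 markers that are used to describe glioblastoma cells as stem-like, glial, neuronal or mesenchymal: NES, FABP7, SOX2, SOX4, SOX9, BMI1, PROM1, CD44, VIM and TUBB3. They were chosen by name with earlier results of these data known, and all 10 were found among the 60606 genes of the deposited table. RNA sequencing had been carried out on 9 libraries, with 3 libraries for each of 3 related cell lines. U87 was the parental human glioblastoma line U87MG, grown in serum without the irradiation given to the other lines. GSCs were stem cells derived from U87, kept in serum-free neural stem cell medium with B27, bFGF and EGF and irradiated repeatedly. Diff cells were obtained from the irradiated GSCs by returning them to serum and picking cells from clonal colonies. GSCs differed from U87 in stem cell derivation, irradiation and medium. Diff differed from U87 in earlier stem cell culture, irradiation and clone selection, with serum in common. Diff differed from GSCs in medium and clone selection, with irradiation in common. Within each comparison the parts of these factors cannot be told apart. The libraries are described as replicates, without a statement that they came from separate cultures, so the p-values measure the spread between these libraries, which may be technical.

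NES encodes nestin, an intermediate filament protein of neural progenitors, and VIM encodes vimentin, the filament protein of mesenchymal cells, astrocytes and most cultured cells. SOX2, SOX4 and SOX9 are DNA-binding factors of neural progenitors and glia, BMI1 is a Polycomb protein that maintains self-renewal by silencing genes, and PROM1 encodes the membrane protein CD133, an epitope of which is widely used to sort glioma stem cells. FABP7 is the fatty acid binding protein of radial glia, CD44 is the receptor for hyaluronan and a marker of the mesenchymal type of glioblastoma, and TUBB3 is the beta-tubulin by which neurons are usually recognised.

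Compared with U87, both derived lines had less SOX4, SOX9 and BMI1 mRNA and more FABP7 mRNA. NES and VIM were lower in both as well, with log2 fold changes of -1.23 and -1.41 in Diff and -0.53 and -0.44 in GSCs. In bulk libraries such as these, fewer cells that carry a transcript and less of it per cell cannot be told apart. SOX2 was highest in GSCs but stayed under 1 TPM there, and PROM1 was low in all 3 lines. CD44 remained among the most abundant transcripts of every line, though it was lower in Diff (-0.45 against U87). TUBB3 did not pass the test in any comparison. Levels are given as TPM, transcripts out of 1000000, a scale on which gene length and library total are divided out, so that genes can be compared with each other. Differences are given as log2 fold changes of TPM + 1 with their standard errors, which understate the change of genes with few reads. A gene was called when limma gave an adjusted p under 0.05 and the log2 fold change was over 1 in either direction. Diff replicate 1 stood apart in its epithelial keratins, with KRT5 at 5.54 TPM and KRT14 at 6.03 TPM, where every other library had at most 0.0661 and 0. Without this library BMI1 lost its call in Diff against U87 (-0.99), and every other marker stayed on the same side of the limits in both comparisons with Diff.

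Promoter sequences are shown for 4 genes: SOX4 and BMI1, which were lower in both derived lines, FABP7, which was higher in both, and SOX2, which was highest in GSCs. Each window runs from 250 bases before to 50 bases after a start site of RefSeq on the build GRCh38.p14, and 9 of the 10 genes had such a window. Capitals mark the CCAAT box (CCAAT, or ATTGG on the other strand) and the GC box (GGGCGG, or CCGCCC on the other strand). The windows are chr6:21593501-21593800 for SOX4, chr10:22320849-22321148 for BMI1, chr6:122779466-122779765 for FABP7 and chr3:181711675-181711974 for SOX2, all on the plus strand.
SOX4: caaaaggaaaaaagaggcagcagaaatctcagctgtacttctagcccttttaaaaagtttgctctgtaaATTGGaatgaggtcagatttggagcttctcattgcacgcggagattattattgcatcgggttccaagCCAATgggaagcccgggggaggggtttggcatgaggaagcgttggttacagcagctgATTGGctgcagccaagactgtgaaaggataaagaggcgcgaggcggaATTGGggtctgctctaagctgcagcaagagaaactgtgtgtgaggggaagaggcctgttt
BMI1: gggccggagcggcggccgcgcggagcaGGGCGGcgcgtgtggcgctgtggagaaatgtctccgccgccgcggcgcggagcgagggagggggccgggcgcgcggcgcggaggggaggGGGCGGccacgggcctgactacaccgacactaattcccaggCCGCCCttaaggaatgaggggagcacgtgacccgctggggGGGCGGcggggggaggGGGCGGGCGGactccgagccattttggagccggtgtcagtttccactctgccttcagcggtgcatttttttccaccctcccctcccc
FABP7: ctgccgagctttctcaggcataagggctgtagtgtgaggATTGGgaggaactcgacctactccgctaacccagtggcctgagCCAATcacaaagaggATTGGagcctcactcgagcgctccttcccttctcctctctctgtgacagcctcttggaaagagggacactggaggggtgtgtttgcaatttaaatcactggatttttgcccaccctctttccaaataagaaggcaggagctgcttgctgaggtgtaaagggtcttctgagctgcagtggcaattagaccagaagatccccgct
SOX2: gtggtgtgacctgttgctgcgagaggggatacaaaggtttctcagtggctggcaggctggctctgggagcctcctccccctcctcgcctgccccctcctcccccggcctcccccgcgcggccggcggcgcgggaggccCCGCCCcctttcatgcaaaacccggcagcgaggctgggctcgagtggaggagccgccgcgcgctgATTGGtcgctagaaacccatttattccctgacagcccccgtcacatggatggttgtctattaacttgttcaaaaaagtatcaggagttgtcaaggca

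The SOX4 window held 4 CCAAT boxes and no GC box, with a GC content of 49.3%, and the FABP7 window held 3 CCAAT boxes and no GC box, with 52.7%. The BMI1 window shown was the reverse, with no CCAAT box, 6 GC boxes counting overlaps and 73.3% GC. Another BMI1 window, not shown, held no CCAAT box and 5 GC boxes, with 91.0% GC. The SOX2 window held 1 of each box and had 63.3% GC. The FABP7 start site was not the RefSeq start of the gene, and that of SOX4 lay inside the gene span given below. Among all 35116 RefSeq promoter windows of the same length, 34.6% held a CCAAT box and 45.0% a GC box on either strand. A TATA box (TATAAA) stood in 11.5% of all windows and the SOX core letters AACAAT in 10.1%, and neither was found in any of the 14 windows of the 9 genes. SOX4 and FABP7, which moved in opposite directions, both held several CCAAT boxes and no GC box. The matches describe letters in the windows and not sites of binding.

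In the comparison of Diff cells with U87, 6 of the 8 marker genes that passed the filter on low values (a mean over 1 TPM) were called, against 12.3% of all 22909 genes tested. FABP7 was the 1 called higher, beside 5.92% of all genes, and 5 were lower, beside 6.36%. In GSCs against U87, 4 of 8 were called, against 17.1% of all genes, with 1 higher (9.52% of all genes) and 3 lower (7.53%). In Diff against GSCs, 1 of 8 was called, against 8.01% of all genes, and it was lower in Diff (5.36% of all genes, with 2.66% higher). By adjusted p alone the counts were 7, 6 and 7 of 8, beside 39.4%, 48.6% and 34.8% of all genes. The libraries of the groups did not overlap for 8, 6 and 7 of the 8 genes, beside 55.2%, 55.8% and 46.7% of all genes. For the 8 genes the median log2 fold change was -1.13 (Diff to U87), -0.48 (GSCs to U87) and -0.57 (Diff to GSCs), where the medians of all genes were -0.04, 0.02 and -0.06. SOX2 and PROM1 did not pass the filter and were taken from a fit without it, over 42424 genes. The comparisons share libraries and are not independent of each other. Because the markers were chosen with earlier results of these data known, their shares beside those of all genes are not a test. An exact permutation test of 3 libraries against 3 cannot give a p below 0.1, which was its value for every gene whose groups did not overlap.

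**Figure D1:**
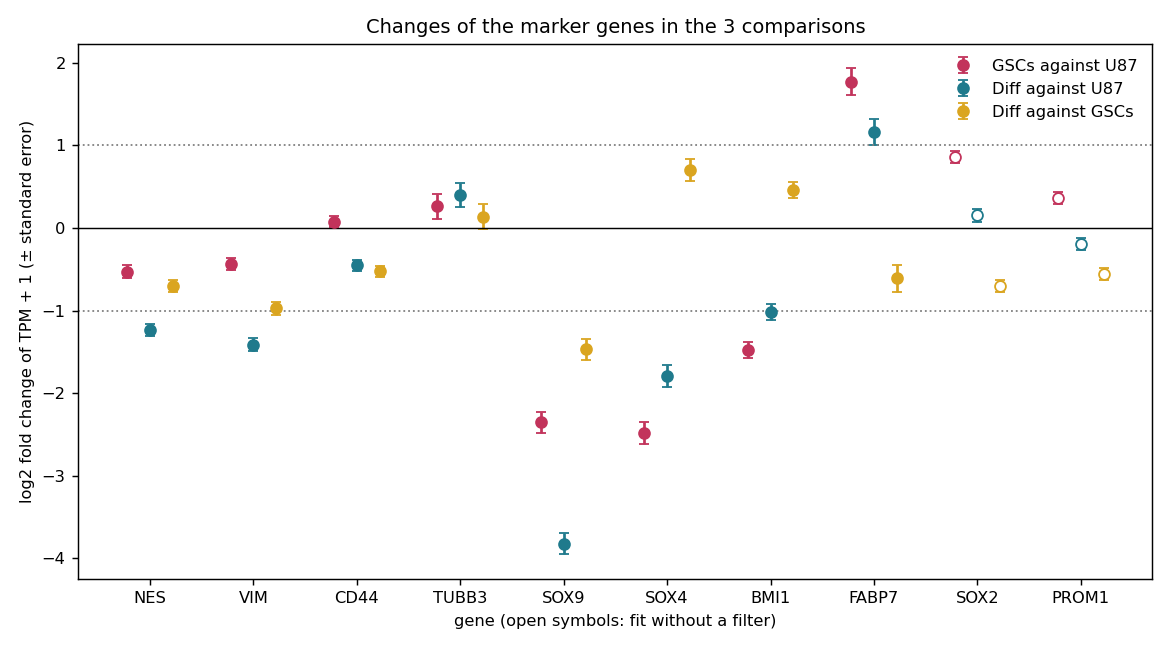
Log2 fold change of TPM + 1 (y axis) with its standard error for each marker gene in GSCs against U87, Diff against U87 and Diff against GSCs, with dotted lines at the limit of 1 in either direction and open symbols for the 2 genes tested without a filter. SOX9, SOX4 and BMI1 lie below -1 in both comparisons with U87, FABP7 lies above 1 in both, and SOX9 is the only gene past the limit in Diff against GSCs.

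The intermediate filament genes were examined first. NES, on the minus strand of chromosome 1 (GRCh38, 156668763 to 156677397), was measured at 32.5, 31.1 and 35.5 TPM in the U87 libraries, at 21.7, 23.3 and 22.6 in GSCs and at 13.1, 14.6 and 12.7 in Diff. The 3 lines were ordered U87, GSCs, Diff, with no overlap between any pair of lines. NES fell in Diff against U87 (log2 fold change -1.23, SE 0.08, adjusted p 4.02e-06). It was also lower in GSCs than in U87 (-0.53, SE 0.08, adjusted p 0.00047) and lower in Diff than in GSCs (-0.71, SE 0.08, adjusted p 0.000195), both past the adjusted p and under the limit for a call.

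VIM, on the plus strand of chromosome 10 (17228259 to 17237593), was among the most abundant nuclear transcripts, ranked 18 in U87, 30 in GSCs and 74 in Diff. Its levels were 1645, 1619 and 1655 TPM in U87, 1248, 1089 and 1305 in GSCs, and 582, 651 and 616 in Diff. The same order of the lines was therefore seen as for NES, again without overlap. VIM fell in Diff against U87 (-1.41, SE 0.08, adjusted p 1.84e-06). The difference of Diff from GSCs was -0.97 (SE 0.08, adjusted p 3.00e-05), just under the limit, and that of GSCs from U87 was -0.44 (SE 0.08, adjusted p 0.00135). The antisense gene VIM-AS1, which shares 24.4% of the VIM exon bases together with a further antisense gene, was at a mean of 7.05 TPM in U87, 2.24 in GSCs and 1.72 in Diff, far below VIM in each line. The setting of strand in the counting is not given in the sources used here.

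Of the 22 intermediate filament and linker genes, 14 were tested. The called share was 28.6% in Diff and in GSCs against U87, beside 12.3% and 17.1% of all genes. In Diff against U87, 1 was called higher and 3 lower, and NES and VIM were 2 of those 3. The other was KRT8, an epithelial keratin (-1.45, 3.60 TPM in U87 and 0.691 in Diff), while BFSP1, a filament protein known from the lens, rose by 1.09. In GSCs against U87, PRPH, which encodes the neuronal filament protein peripherin, rose by 2.14 (0.168 to 4.34 TPM) and fell from GSCs to Diff (-1.86). In that comparison BFSP1 also rose, by 1.02, and KRT8 (-1.12) and DST, a large linker of filaments (-1.09), fell. GFAP, the filament of astrocytes, was low throughout, at a mean of 2.29 TPM in U87, 0.809 in GSCs and 0.909 in Diff, and was not called in any comparison.

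CD44, on the plus strand of chromosome 11 (35138870 to 35232402), was at 412, 391 and 413 TPM in U87, 407, 402 and 473 in GSCs and 299, 285 and 302 in Diff. It ranked 149, 129 and 215 among nuclear genes in the 3 lines. GSCs overlapped with U87, and Diff lay below both. The difference of GSCs from U87 was 0.07 (SE 0.07, adjusted p 0.41), with a 95% interval from -0.08 to 0.23, and it was -0.0018 without GSCs replicate 3, the highest of the 9 libraries. Diff was lower than U87 (-0.45, SE 0.07, adjusted p 0.000809) and lower than GSCs (-0.53, SE 0.07, adjusted p 0.000515), both under the limit for a call. Values are per gene, so the splice forms of CD44 were not separated.

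CD44 binds hyaluronan, and 24 of 28 genes for its ligands, enzymes and partners were tested. In Diff against U87, 3 were called higher and 5 lower, and in GSCs against U87 the counts were again 3 and 5. The called share was 33.3% in both, beside 12.3% and 17.1% of all genes. HAS1 and HAS2, enzymes that make hyaluronan, fell in both lines: HAS1 (-2.75 in GSCs and -2.78 in Diff) from a mean of 6.70 TPM in U87 to 0.130 and 0.123, and HAS2 (-2.07 and -1.81) from 6.90 to 0.911 and 1.25. The third enzyme, HAS3, was at 4.04, 4.23 and 3.61 TPM and was not called. CEMIP, which takes part in breaking hyaluronan down, rose by 1.34 in GSCs and by 1.92 in Diff, whereas HYAL3, of the hyaluronidase family, fell (-1.72 and -1.18). CD74, which pairs with CD44 as a receptor for the cytokine MIF, fell in GSCs (-3.05, 295 to 34.8 TPM) and rose from GSCs to Diff by 1.50. SRGN, a proteoglycan that CD44 can bind, fell in Diff against U87 (-1.62), and EZR, which links CD44 to actin, rose from GSCs to Diff by 1.14.

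The mesenchymal markers around CD44 and VIM did not move together. Of 43 tested, 3 were called higher and 6 lower in each of the comparisons with U87, and 4 higher and 1 lower in Diff against GSCs, with medians of -0.36 (Diff to U87), -0.33 (GSCs to U87) and 0.05 (Diff to GSCs). CHI3L1, a secreted glycoprotein, rose by 2.36 in GSCs and by 4.06 in Diff, from a mean of 107 TPM in U87 to 557 and 1809. The collagen gene COL1A1 fell in both lines (-4.12 in GSCs and -1.66 in Diff, with 497, 27.7 and 157 TPM), as did COL5A1 (-3.32 and -2.87). TGFBI, a matrix protein induced by TGF-beta, fell in GSCs (-3.57) and rose from GSCs to Diff by 3.02, with means of 795, 66.0 and 541 TPM.

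The SOX factors were examined next. SOX9, on the plus strand of chromosome 17 (72121020 to 72126420), was at 45.6, 37.7 and 50.1 TPM in U87, 7.54, 7.85 and 8.17 in GSCs and 2.48, 2.40 and 1.75 in Diff. No library of any line reached into the range of another line. SOX9 fell in GSCs (-2.35, SE 0.13, adjusted p 1.36e-06), in Diff (-3.82, SE 0.13, adjusted p 1.46e-07) and from GSCs to Diff (-1.47, SE 0.13, adjusted p 5.98e-05). On the TPM scale itself the U87 mean was 5.66 times that of GSCs and 20.1 times that of Diff. Of all genes tested, 0.166% had a lower log2 fold change than SOX9 in Diff against U87.

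SOX4, on the plus strand of chromosome 6 (21592768 to 21598619), was at 8.77, 11.3 and 9.91 TPM in U87, 1.10, 0.940 and 0.821 in GSCs and 2.22, 2.33 and 1.95 in Diff. Unlike SOX9, its lowest line was GSCs, with Diff between GSCs and U87. SOX4 fell in GSCs (-2.49, SE 0.13, adjusted p 1.10e-06) and in Diff (-1.79, SE 0.13, adjusted p 1.10e-05). From GSCs to Diff it was higher by 0.70 (SE 0.13, adjusted p 0.00369), under the limit for a call.

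SOX2, on the plus strand of chromosome 3 (181711924 to 181714436), was listed at 0 in U87 replicates 1 and 3 and at 0.115 TPM in U87 replicate 2. It was at 0.809, 0.833 and 0.994 TPM in GSCs and at 0.185, 0.163 and 0.110 in Diff. Every GSCs library was above every other library, while Diff overlapped with U87. The steps between low TPM values were used to estimate the read fragments behind these levels: 0, 2 and 0 fragments in U87, 14, 16 and 15 in GSCs and 4, 3 and 2 in Diff, each within 0.029 of a whole number. A count of 0 allows up to 3 fragments in a library. Summed over the libraries and scaled to depth, GSCs held 23.5 times the SOX2 of U87 (exact Clopper-Pearson 95% interval 6.14 to 200.1) and 5.65 times that of Diff (2.73 to 13.1), and the ratio of Diff to U87 was 4.17 (0.862 to 39.6). These intervals cover counting error only.

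In the fit without a filter SOX2 was higher in GSCs than in U87 by 0.86 (SE 0.08, adjusted p 7.00e-05) and lower in Diff than in GSCs (-0.70, SE 0.08, adjusted p 0.000506), where an adjusted p under 0.05 was given to 30.0% and 19.6% of all 42424 genes. The difference of Diff from U87 was 0.15 (SE 0.08, adjusted p 0.216), with a 95% interval from -0.02 to 0.33, beside 23.3% of all genes. SOX2 lies inside the longer transcript gene SOX2-OT, whose mean was 0.0615 TPM in U87, 0.222 in GSCs and 0.0288 in Diff. With 2 to 16 fragments in the libraries that had any, SOX2 rested on few reads in every line.

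Of the 20 genes of the SOX family, 6 passed the filter and 4 were listed at 0 in all 9 libraries. SOX5 rose in GSCs by 1.13 (1.63 to 4.80 TPM), and SOX4 and SOX9 were the members of the family called lower. SOX13 was also lower than in U87, under the limit for a call, in GSCs (-0.36, limma adjusted p 0.0262) and in Diff (-0.64, adjusted p 0.00195), and SOX15 was lower in Diff than in GSCs (-0.77, adjusted p 0.00578). SOX12 was the most evenly expressed, at means of 43.9 TPM in U87, 39.1 in GSCs and 38.4 in Diff, with no adjusted p under 0.05 in any comparison. SOX9 was at about the same mean as SOX12 in U87 and far below it in Diff. Of the genes below the filter, SOX6, which acts with SOX5 and SOX9 in other tissues, was at 0.167, 0.630 and 0.366 TPM and SOX10, a factor of the oligodendrocyte lineage, at 0.637, 0.279 and 0.217.

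**Figure D2:**
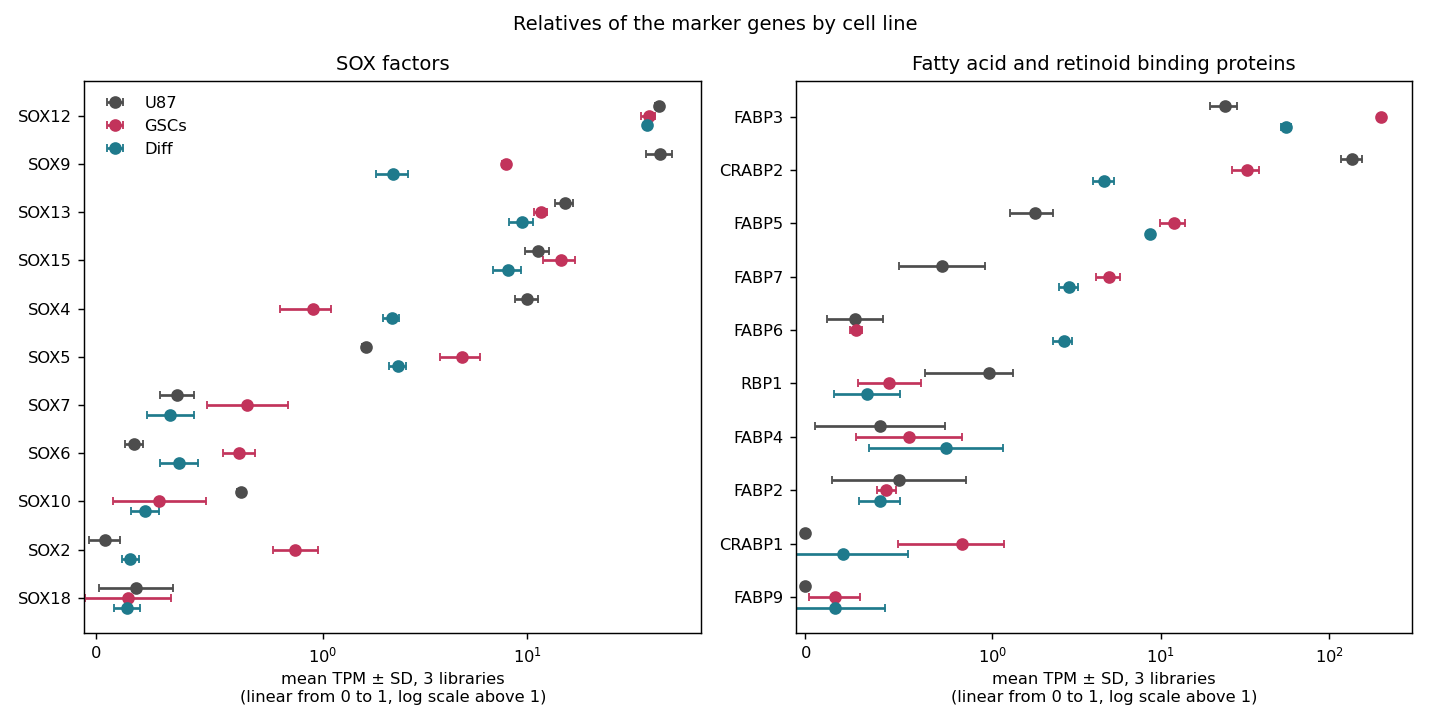
Mean TPM with SD of 3 libraries (x axis, linear from 0 to 1 and log scale above 1) for the genes of the SOX family (left) and of the fatty acid and retinoid binding proteins (right) whose mean over all libraries was over 0.1 TPM, by cell line. SOX9 and CRABP2 spread widely with U87 highest and Diff lowest, SOX12 is nearly level, and FABP3, FABP5 and FABP7 have U87 as the lowest line.

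FABP7, on the plus strand of chromosome 6 (122779475 to 122784074), was at 0.546, 0.986 and 0.662 TPM in U87, 4.38, 4.52 and 5.82 in GSCs and 3.27, 2.53 and 2.77 in Diff. Both derived lines lay above U87 without overlap, with GSCs highest. FABP7 rose by 1.77 in GSCs (SE 0.16, adjusted p 2.66e-05) and by 1.16 in Diff (SE 0.16, adjusted p 0.000483). Diff was lower than GSCs (-0.61, SE 0.16, adjusted p 0.0173), under the limit for a call. With 1 library left out, the limma adjusted p of this difference reached 0.0629, so it did not pass in every such fit. On the TPM scale the GSCs mean was 6.71 times and the Diff mean 3.91 times that of U87.

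FABP7 was not the only fatty acid binding protein that rose. FABP3, the form of heart muscle, rose by 3.05 in GSCs and 1.19 in Diff, from 24.0 TPM in U87 to 205 and 55.4, and FABP5, the form of skin, rose by 2.22 and 1.81, from 1.79 to 11.9 and 8.67. FABP6, the bile acid binding form of the ileum, rose in Diff by 1.53 and not in GSCs, where the difference from U87 was 0.01 and the Diff to GSCs difference was 1.52 (limma, adjusted p 0.000172). In contrast CRABP2, which carries retinoic acid, fell in both lines (-2.05 in GSCs and -4.62 in Diff), from 137 TPM to 32.6 and 4.62. In Diff against U87, 4 of 5 tested genes of the list were called higher and 1 lower, beside 5.92% and 6.36% of all genes. FABP6 was 1 of those 4 and passed the filter only through Diff, where it was high. Its means were 0.266, 0.271 and 2.65 TPM in U87, GSCs and Diff, so its place in the count was largely set by the filter. In GSCs against U87, 3 were called higher and 1 lower, beside 9.52% and 7.53% of all genes. The 8 other genes of the list did not pass the filter.

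BMI1, on the plus strand of chromosome 10 (22321211 to 22331484), was at 21.8, 18.3 and 22.6 TPM in U87, 6.48, 6.55 and 7.58 in GSCs and 9.41, 9.91 and 10.1 in Diff. The 3 lines did not overlap, and GSCs was the lowest. BMI1 fell in GSCs (-1.48, SE 0.10, adjusted p 4.53e-06) and in Diff (-1.02, SE 0.10, adjusted p 6.06e-05). The call in Diff stood close to the limit and was lost in 6 of 20 alternatives, with values from -1.11 to -0.81 and an adjusted p of at most 0.000571. From GSCs to Diff BMI1 was higher by 0.46 (SE 0.10, adjusted p 0.00732), under the limit. A read-through gene, COMMD3-BMI1, shares 23.3% of the BMI1 exon bases on the same strand and was listed at 0 in all 9 libraries, so reads in shared exons may have been left out and the BMI1 level is uncertain. COMMD3, the gene upstream, was at means of 2.34, 1.00 and 1.13 TPM in U87, GSCs and Diff.

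BMI1 works in Polycomb repressive complex 1 (PRC1), which binds and modifies chromatin together with PRC2. Of 22 genes for PRC1 and its INK4 and CDKN1A targets, 20 were tested. BMI1 was the only one called in Diff and in GSCs against U87, beside 12.3% and 17.1% of all genes. By adjusted p under 0.05 the counts were 7 and 11 of 20, beside 39.4% and 48.6% of all genes. In Diff against GSCs 0 were called, beside 8.01% of all genes. There 5 had an adjusted p and 8 an unadjusted p under 0.05 in limma. The BMI1 paralogue PCGF2 was at means of 29.0, 36.8 and 37.8 TPM, and the catalytic partners RNF2 at 30.5, 43.7 and 28.1 and RING1 at 30.4, 24.2 and 25.9. CDKN2A, a known target of BMI1, was at most 0.0941 TPM on average in any line, U87 included. The reason for this low level was not tested. Of 11 PRC2 genes, EZH1 rose in GSCs by 1.11 and no other was called in any comparison.

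PROM1, on the minus strand of chromosome 4 (15963076 to 16084378), was at 0.121, 0.155 and 0.238 TPM in U87, 0.545, 0.596 and 0.379 in GSCs and 0.0156, 0.0366 and 0.0185 in Diff. The lines were ordered GSCs, U87, Diff without overlap. The estimated fragments were 6, 8 and 14 in U87, 28, 34 and 17 in GSCs and 1, 2 and 1 in Diff, within 0.102 of whole numbers. Scaled to depth, GSCs held 2.95 times the PROM1 of U87 (exact interval 1.89 to 4.72) and 22.3 times that of Diff (8.37 to 83.9), and Diff held 0.132 of that of U87 (0.0337 to 0.378).

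In the fit without a filter PROM1 was higher in GSCs than in U87 by 0.36 (SE 0.07, adjusted p 0.00528) and lower in Diff than in GSCs (-0.56, SE 0.07, adjusted p 0.0011). The difference of Diff from U87 was -0.19 (SE 0.07, adjusted p 0.0933), with a 95% interval before adjustment from -0.36 to -0.03, and it passed in 3 of 17 alternatives. FGFBP2, a neighbour that shares 2.23% of the PROM1 exon bases, was at 0.0356 TPM in U87, 0.638 in GSCs and 0.0384 in Diff. Among 7 genes for prominins, tetraspanins and other partners, CD9, a tetraspanin of stem cell surfaces, rose in GSCs by 2.03 (25.9 to 109 TPM) and fell from GSCs to Diff (-1.29). CD81, a further tetraspanin, fell in Diff (-1.01 against U87 and -1.40 against GSCs).

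TUBB3, on the plus strand of chromosome 16 (89921392 to 89938761), was at 3.66, 4.41 and 3.14 TPM in U87, 5.15, 4.92 and 3.93 in GSCs and 4.55, 5.82 and 5.29 in Diff. GSCs overlapped with both other lines, and Diff lay above U87. The differences were 0.26 in GSCs against U87 (SE 0.15, adjusted p 0.181, 95% interval -0.08 to 0.60), 0.40 in Diff against U87 (SE 0.15, adjusted p 0.0622, interval 0.06 to 0.73) and 0.14 in Diff against GSCs (SE 0.15, adjusted p 0.516, interval -0.20 to 0.47). The adjusted p of Diff against U87 ran from 0.0428 to 0.186 over the alternatives. A read-through gene on the same strand, AC092143.1, shares 35.8% of the TUBB3 exon bases and was listed at 0 in all 9 libraries, so the level of TUBB3 is uncertain in the same way as that of BMI1.

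In contrast to TUBB3, 5 of the 15 tubulins tested were called lower in GSCs against U87, beside 7.53% of all genes. Among them were TUBA4A (-1.39, 221 to 84.0 TPM), TUBB4B (-1.21, 913 to 394 TPM), TUBB2A (-1.15) and TUBA1B (-1.10). TUBB2A, a beta-tubulin of neurons and other cells, rose from GSCs to Diff by 1.12. By limma, 0 of the 15 were called in Diff against U87, beside 12.3% of all genes. There 9 had an adjusted p under 0.05, beside 39.4% of all genes, and 10 an unadjusted p under 0.05. TUBB3 was listed at a U87 mean of 3.74 TPM beside 913 for TUBB4B. Because the TUBB3 level is uncertain, its rank among the tubulins is uncertain too.

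Of the wider neuronal list, 17 of 31 genes were tested, TUBB3 among them. In Diff against U87, 2 were called higher and 5 lower, beside 12.3% of all genes called. In GSCs against U87, 3 were higher and 4 lower, beside 17.1%. In Diff against GSCs, 3 were higher and 2 lower, beside 8.01%. MAP2, which binds microtubules of dendrites, rose from GSCs to Diff by 1.30 (8.22 to 21.7 TPM), and GAP43, a protein of growing axons, by 2.07 (0.136 to 3.76 TPM), although U87 had more GAP43 than both, at 9.37 TPM. ENO2, the enolase of neurons, fell from GSCs to Diff (-1.34), as did the microtubule protein MAPT (-1.28). CRMP1, a protein of axon guidance, was higher than in U87 in both lines (1.75 in GSCs and 1.43 in Diff), and CD24, a surface protein of neuroblasts, was lower in both (-2.04 and -2.25). DCX, a marker of young neurons, was at most 0.012 TPM on average in any line, and STMN2 was at 0 in all libraries.

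Of the neural stem and progenitor list, 21 of 32 genes were tested, including 5 of the markers above. In Diff against U87, 2 were called higher and 8 lower, beside 12.3% of all genes called. In GSCs against U87, 4 were higher and 5 lower, beside 17.1%. In Diff against GSCs, 1 was higher and 5 lower, beside 8.01%. Apart from those 5, the largest changes were in POU3F2, a factor of neural progenitors, which rose by 1.84 in GSCs and by 2.65 in Diff (0.181, 3.25 and 6.48 TPM in U87, GSCs and Diff), and in ID4, an inhibitor of differentiation, which fell in GSCs (-1.94, 3.97 to 0.302 TPM) and was called lower in Diff, where it was listed at 0 in all libraries. ITGA6, an integrin used to enrich stem cells, also fell in both lines (-1.51 and -1.96). HES1, a target of Notch signalling, was higher in Diff than in GSCs (1.35).

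Of the radial glia and astrocyte list, which includes FABP7, SOX9, CD44 and VIM, 18 of 25 genes were tested. In Diff against U87, 4 were called higher and 5 lower, beside 12.3% of all genes called. In GSCs against U87, 5 were higher and 2 lower, beside 17.1%. In Diff against GSCs, 0 were higher and 3 lower, beside 8.01%. The higher genes included GLUL, the glutamine synthetase of astrocytes (2.55 in GSCs and 2.14 in Diff, with means of 7.41, 48.3 and 36.0 TPM), APOE, a lipid carrier (2.18 and 2.49), and NDRG2 (1.36 and 2.04). SOX9 was the gene of the list with the lowest log2 fold change in both comparisons with U87. GJA1, the gap junction protein of astrocytes, fell from GSCs to Diff (-1.60, 500.0 to 163 TPM), as did ALDOC, an aldolase of astrocytes (-1.55). S100B and AQP4, which mark mature astrocytes, were at or under 0.617 and 0.00651 TPM on average in every line.

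Of the 14 proneural glioma genes tested, SOX4 among them, 1 was called higher and 5 lower in Diff against U87, beside 12.3% of all genes called. In GSCs against U87, 1 was higher and 4 lower, beside 17.1%. In Diff against GSCs, 2 were higher and 2 lower, beside 8.01%. The gene called higher was MAP2 in Diff against U87 (1.35) and CKB in GSCs against U87 (1.08). GABRA3, a GABA receptor subunit, fell in both lines (-4.15 in GSCs and -2.70 in Diff) and rose from GSCs to Diff by 1.45. The small GTPase gene RAB33A also fell in both lines (-2.62 and -2.71). PDGFRA, the growth factor receptor typical of this type, fell in Diff (-1.67 against U87 and -2.14 against GSCs). Its means were 2.37 TPM in U87, 3.70 in GSCs and 0.0556 in Diff. Of the 4 pluripotency factors tested, KLF4 was called lower in both lines (-1.36 and -1.72) and no other was called in any comparison.

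The chromosomal surroundings of the markers were then compared, taking the 25 tested genes on either side of each. BMI1 and VIM lie on the short arm of chromosome 10, about 5 megabases apart, and the genes around both were lower in the derived lines. Around BMI1 (chr10:15211643-27100498), all 50 neighbours had a log2 fold change below 0 in each comparison with U87, with a median of -0.94 in Diff and -0.89 in GSCs, and 22 and 20 of them were called lower. Around VIM the medians were -0.90 and -0.87, with 20 and 19 called lower. Of 20709 such windows over the genome, 0.681% had a median lower than that of BMI1 in Diff against U87 and 0.439% in GSCs against U87. The windows of BMI1 and VIM overlap and share genes.

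The BMI1 value of -1.02 in Diff lay in the middle of its neighbours, 24 of 50 of which were lower, and its value of -1.48 in GSCs toward their lower end, with 9 of 50 lower. VIM showed the opposite order, with 11 of 50 neighbours lower in Diff, where VIM was at -1.41, and 38 of 50 lower in GSCs, where it was at -0.44. In Diff against GSCs the median of the neighbours was -0.14 around BMI1 and -0.17 around VIM, while BMI1 was at 0.46 and VIM at -0.97. Copy number was not measured in these samples, and its part in the levels of BMI1 and VIM was not tested. With 10 or 50 genes on either side the medians around BMI1 and VIM in the comparisons with U87 ran from -1.21 to -0.70.

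**Figure D3:**
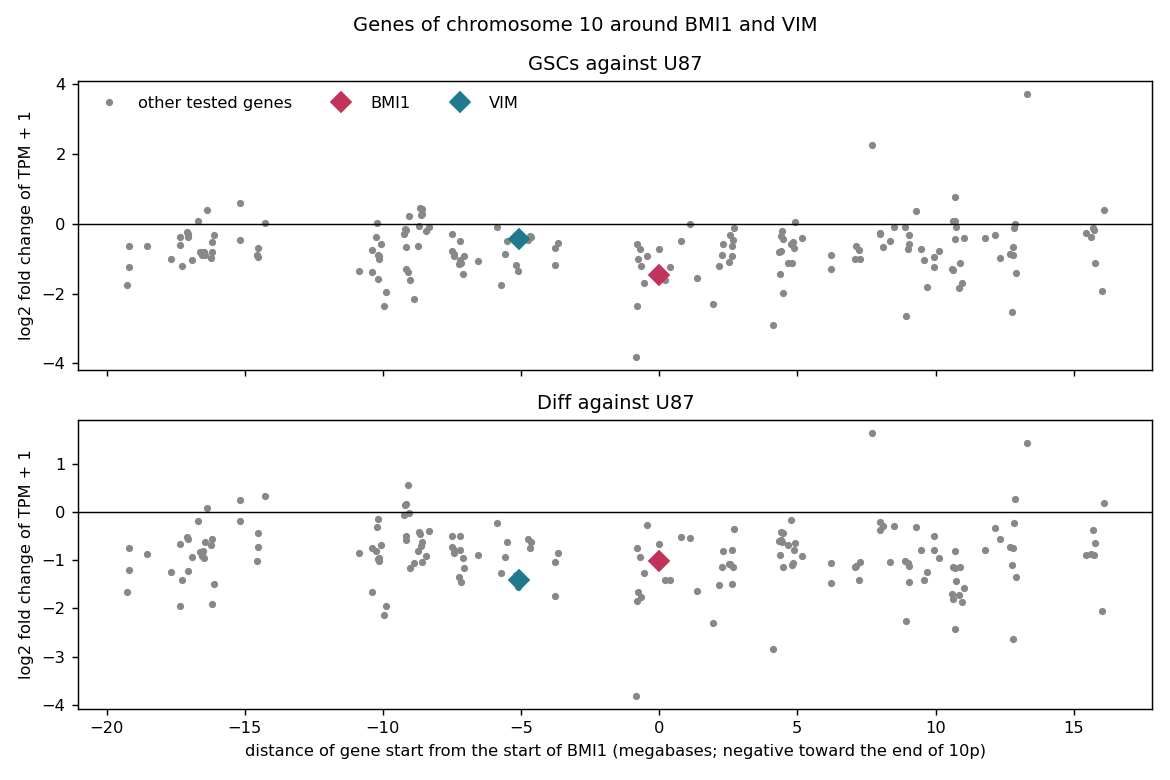
Log2 fold change of TPM + 1 (y axis) of the genes tested on chromosome 10 within 20 megabases of BMI1, by distance of the gene start from the start of BMI1 in megabases (x axis), for GSCs against U87 (top) and Diff against U87 (bottom). Most genes lie below 0 across the stretch; BMI1 and VIM, drawn as diamonds, lie among their neighbours, with VIM above most of them in GSCs and below most of them in Diff.

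Around SOX9 the median was 0.19 in Diff and 0.25 in GSCs against U87, and 0 of 50 neighbours were lower than SOX9 in either comparison. This median depended on the width of the window: with 10 genes on either side it was 0.84 in Diff and 0.99 in GSCs, with 7 and 10 of 20 neighbours called higher, and with 50 on either side it was 0.03 and 0.05. The genes nearest to SOX9 were thus mostly higher in the derived lines, where SOX9 was lower. Around SOX4 the medians were -0.10 and 0.02, and 1 and 0 of 50 neighbours were lower than SOX4. Around FABP7 they were -0.09 and 0.05, and 49 and 48 of 50 neighbours lay below FABP7. The medians around NES (-0.03 and -0.14), CD44 (-0.13 and 0.07) and TUBB3 (-0.01 and -0.10, over 30 neighbours near the end of the chromosome) lay between -0.14 and 0.07. With 10 genes on either side the median around NES was -0.43 in GSCs, with 5 of 20 neighbours called lower and 0 called higher by limma, and -0.05 in Diff. The same narrower window gave -0.36 in Diff and -0.20 in GSCs around CD44, -0.18 and 0.31 around FABP7, 0.05 and 0.11 around SOX4, and -0.04 and -0.05 around TUBB3, where it held 15 genes.

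The genes most like each marker over the 9 libraries were found by the distance between log2 values centred on each gene's mean, among about 11824 genes with a mean over 5 TPM. SOX9 was closest to BNIP3, a mitophagy gene (283, 47.7 and 14.8 TPM in U87, GSCs and Diff, distance 0.62), and to PLEK2 (0.63), and SOX4 to SLC45A1 (0.49) and MFAP2 (0.52). FABP7 was closest to SOD2, the mitochondrial superoxide dismutase (14.1, 47.3 and 31.7 TPM, distance 0.28), and to CYBRD1 (0.30). NES and VIM had a neighbour in common, GFPT2 (284, 212 and 114 TPM), at 0.30 and 0.27, with ADAMTSL1 (0.29) next to NES and KCNMA1 (0.27) next to VIM. BMI1 was closest to SLC39A14 and MAP4K4 (both 0.18), CD44 to PCDH9 (0.12) and OSTC (0.16), and TUBB3 to UBE2L6 (0.27) and CTF1 (0.28). The distances of the markers themselves from a flat profile were 4.74 for SOX9, 3.16 for SOX4, 2.24 for FABP7, 1.87 for BMI1, 1.78 for VIM, 1.53 for NES, 0.73 for CD44 and 0.65 for TUBB3.

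Mitochondrial genes took 25.9% to 31.8% of TPM and the 7SL and 7SK RNAs 6.22% to 11.5%, with the highest share of the latter in U87, 31832 to 33079 genes were above 0, and the estimated depth was 18.6 to 25.3 times 1000000 fragments per library. Of the defining markers of other cell types, PTPRC of leukocytes, AIF1 of microglia and CDH1 of epithelium stayed under 0.1 TPM on average in every line, and CDH5 of endothelium at 0.223, 0.312 and 0.225. Other markers of the same lists were higher in U87, GSCs and Diff. Of endothelium, KDR was at means of 5.97, 17.3 and 9.56 TPM and PECAM1 at 2.77, 6.25 and 2.92. Of epithelium, CLDN4 was at 2.17, 4.51 and 2.70 and EPCAM at 1.64, 1.18 and 1.30. Over the whole lists, the 12 microglial and lymphoid markers summed to 24.9 to 33.8 TPM, with CSF1R lower (-1.49) and TMEM119 higher (1.00) in GSCs against U87. The 10 endothelial and pericyte markers summed to 82.9 to 96.7 TPM in U87, 61.1 to 66.4 in GSCs and 46.2 to 50.2 in Diff, with PDGFRB lower in both derived lines (-2.14 and -2.18) and VWF higher in GSCs (3.03). The 10 epithelial markers summed to 8.17 to 9.62 TPM in U87, 6.81 to 8.78 in GSCs, 18.8 in Diff replicate 1 and 5.10 to 5.53 in the other Diff libraries, and the 16 oligodendrocyte markers, of which 5 were tested, to 132 to 142 in U87, 85.3 to 106 in GSCs and 86.8 to 91.0 in Diff. The part of these other cell type markers in the differences above was not tested. With TPM rescaled after leaving out the 7SL, 7SK and mitochondrial genes, the called markers numbered 6, 4 and 1 as before (Diff against U87, GSCs against U87 and Diff against GSCs), with SOX9 at -3.97, -2.44 and -1.53 and BMI1 at -1.02, -1.57 and 0.55.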

How the data were processed

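Values were deposited by the authors as log2(TPM + 1) per gene and library, for 60606 genes and 9 libraries, and back-transformed columns summed to 1000000. According to the submitters' processing notes, FastQC 0.11.9, Trimmomatic 0.39, HISAT2 2.2.1, featureCounts 2.0.5 and R 4.2.0 were used with GRCh38. The annotation release and strand setting are not given in the sources used here. The labels give removal of ribosomal RNA, whereas the study's methods give oligo(dT) selection.

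Genes with a mean TPM over 1 were fitted in a single model of the 3 groups, without covariates, by limma 3.58.1 with a mean-variance trend (R 4.3.3), with Benjamini-Hochberg adjustment within each comparison. On simulated data for GSCs against U87, 182 of 200 genes changed by 2 among 22909 were recovered, with 4 false calls. Fragment numbers were estimated with GENCODE 29 gene lengths from the spacing of low TPM; about 82% of low values were whole within 0.05. Coordinates are from GENCODE 29 on GRCh38. Python 3.11.15, pandas 2.3.3, scipy 1.17.1 and matplotlib 3.10.9 were used.

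The marker genes and gene lists were chosen with earlier results of these data known. Named were all 10 markers, up to 4 called genes with the largest change per list and comparison, and the 2 genes most like each marker. A gene named by this rule is not reported here. Other genes (GFAP, HAS3, SOX12, SOX13, SOX15, SOX6, SOX10, PCGF2, RNF2, RING1, CDKN2A, DCX, STMN2, CKB, S100B, AQP4, PTPRC, AIF1, CDH1, KRT5, KRT14, CDH5, PECAM1, EPCAM, CLDN4 and overlapping genes) were chosen after their values were seen. Alternatives covered the pseudocount, the filter, the scaling, the variance model, the libraries fitted, a replicate block and the threshold; the unfiltered variants for SOX2 and PROM1 were added after seeing the data.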

Additional observations from a re-analysis of the deposited data

Results flagged for a closer look

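For 2 of the 10 markers the effect against U87 had opposite signs in the derived lines, and the lines differed from each other in limma. PROM1 was 0.36 above U87 in GSCs and -0.19 from it in Diff on the log2 scale of TPM + 1. Its difference of Diff from U87 did not pass the test (limma adjusted p 0.0933). The PROM1 difference of Diff from GSCs was -0.5553 (adjusted p 0.0011), with all 3 Diff libraries below all 3 GSCs libraries. Its Diff libraries held 1 to 2 estimated fragments. CD44 was 0.07 above U87 in GSCs, which did not pass the test and was -0.0018 without GSCs replicate 3, and -0.45 from U87 in Diff. The CD44 difference of Diff from GSCs was -0.5271 (adjusted p 0.000515), again with all Diff libraries below all GSCs libraries.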

How the results depend on the processing

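None of the 30 marker results reversed a called direction, and 16 kept their outcome in every alternative run. Of 573 alternatives over all of them, 549 left the outcome unchanged, 9 lost a pass and 15 gained one. For SOX2 and PROM1 a pass meant the adjusted p alone, without the fold limit. Over their alternatives SOX2 reached 2.92 in GSCs against U87 and -1.96 in Diff against GSCs. PROM1 reached 1.17 and -2.28 in the same comparisons, so both genes went past the fold limit in some alternatives. Over all genes, in the order Diff against U87, GSCs against U87 and Diff against GSCs, the counts of called genes became 1146, 1707 and 673 with log2(TPM + 5), 1583, 2254 and 1038 with a mean TPM over 5, and 9024, 11129 and 7982 by adjusted p alone, compared with 2812, 3908 and 1836. Leaving out 1 library gave 2755 to 2811, 3797 to 3980 and 1773 to 1907. Called markers in GSCs against U87 were 2 with a mean TPM over 5, where fewer markers were tested. In Diff against GSCs they were 2 with log2(TPM + 0.1), where SOX4 passed the limit, 0 with log2(TPM + 5), where SOX9 was at -0.84, and 7 by adjusted p alone. Leaving out 1 library gave 5 to 6, 4 to 4 and 1 to 2 called markers; VIM was the second without GSCs replicate 2 or Diff replicate 2, and BMI1 lost its call in Diff against U87 without U87 replicate 1 (-0.99), U87 replicate 3 (-0.96) or Diff replicate 1 (-0.99). With log2(TPM + 5) FABP7 fell under the limit in Diff (0.45) and GSCs (0.79) against U87. The cause of these changes other than the pseudocount was not tested.

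The replicate numbers did not pair the libraries: deviations of the 9 same-numbered pairs correlated from -0.0416 to 0.0489, below the limit of 0.1. With a replicate block 2810, 3917 and 1831 genes and 6, 4 and 1 markers were called. SOX2 and PROM1 rest on 0 to 34 estimated fragments per library, which limits what their values can show.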
